A study of Mus musculus with 4 samples.

Results

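The adipocyte genes Adipoq, Cfd, Lep, Retn, Plin1, Plin4, Cidec, Fabp4, Lpl and Pck1 were followed in RNA from mouse colon. The 10 genes were taken by symbol from an array that measured 22161 genes above background, and 9 of the 10 were among those 22161, while Lep was not. Adipoq and Cfd were chosen by their measured ratios of signal in colon after dextran sulfate sodium (DSS) over naive colon, and the others as further genes of fat cells. The DSS values of all 10 are therefore given as a description, with no test.

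The study measured colon of X-KO mice, which lack the group X secreted phospholipase A2 encoded by Pla2g10, and of wildtype (WT) mice, each with and without DSS, a sulfated polysaccharide that injures the colon lining when drunk. There were 4 groups of C57BL/6 mice: X-KO DSS, X-KO naive, WT DSS and WT naive. DSS mice drank 1% (w/v) DSS and were labelled as 7 days, and naive mice were labelled as having no colitis. The age and sex entries of the labels are interchanged, and read the other way round they give males of 9 weeks, while the housing notes give 8 weeks. The labels name no cell type to which the loss of Pla2g10 is restricted. Each group was 1 array of RNA pooled from 3 colons, so no group has a replicate and the spread between mice cannot be seen.

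Adipocytes store triglyceride in a large lipid droplet, take up fatty acids released by lipoprotein lipase, and secrete hormones and complement proteins. In the gut wall they lie in the mesenteric and serosal fat attached to the outside of the bowel rather than in the mucosa. Several of the genes are not restricted to fat: Fabp4 is also made by endothelial cells and macrophages, Lpl by muscle and macrophages, and Pck1 by liver, kidney and intestine.

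The sequences upstream of 5 of the genes are shown because these genes span the range of the DSS values described below, from Adipoq, Cfd, Retn and Plin1, which were higher with DSS, to Pck1, which was lower. Each is the 250 bases before the annotated transcription start, 5′ to 3′ on the gene's strand, from RefSeq with build GRCm38.p6. Capitals mark matches to the C/EBP core TTNCNNAA, bound by the C/EBP factors of fat cells, or to the CCAAT box. The Adipoq stretch lies at chr16:23146286-23146535 on the plus strand, Cfd at chr10:79890603-79890852 on the plus strand, Retn at chr8:3655520-3655769 on the plus strand, Plin1 at chr7:79732777-79733026 on the minus strand, and Pck1 at chr2:173152823-173153072 on the plus strand.
Adipoq: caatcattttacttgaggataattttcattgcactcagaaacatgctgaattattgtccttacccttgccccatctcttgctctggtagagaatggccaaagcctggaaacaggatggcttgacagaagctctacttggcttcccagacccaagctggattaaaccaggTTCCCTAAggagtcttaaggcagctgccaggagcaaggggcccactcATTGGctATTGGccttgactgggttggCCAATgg
Cfd: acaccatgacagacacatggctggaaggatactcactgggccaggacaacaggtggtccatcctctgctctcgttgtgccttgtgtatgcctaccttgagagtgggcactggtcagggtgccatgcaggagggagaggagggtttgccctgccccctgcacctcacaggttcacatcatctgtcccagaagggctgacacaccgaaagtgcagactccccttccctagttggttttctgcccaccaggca
Retn: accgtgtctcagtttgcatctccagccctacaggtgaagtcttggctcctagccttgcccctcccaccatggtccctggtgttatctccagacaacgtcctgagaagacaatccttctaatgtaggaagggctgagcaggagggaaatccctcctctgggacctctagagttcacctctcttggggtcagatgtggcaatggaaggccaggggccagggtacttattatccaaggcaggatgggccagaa
Plin1: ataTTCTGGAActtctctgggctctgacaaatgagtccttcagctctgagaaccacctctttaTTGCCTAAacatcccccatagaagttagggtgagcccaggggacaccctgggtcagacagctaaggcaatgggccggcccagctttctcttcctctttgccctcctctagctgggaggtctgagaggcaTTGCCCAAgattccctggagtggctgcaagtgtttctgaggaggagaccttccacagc
Pck1: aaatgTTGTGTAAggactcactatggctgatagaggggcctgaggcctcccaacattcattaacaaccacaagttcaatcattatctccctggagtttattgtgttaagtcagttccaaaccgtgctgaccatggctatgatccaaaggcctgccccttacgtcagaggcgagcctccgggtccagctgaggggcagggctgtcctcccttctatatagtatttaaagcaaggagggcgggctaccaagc

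Promoter stretches were found for 8 of the 10 genes, with 2 for Cidec, so 9 stretches were searched on both strands. The C/EBP core was present in 6 of the 9, against 36.8% of 32536 distinct promoter stretches of the same length. CCAAT was present in 2 of the 9, against 33.8% of all stretches. The nuclear receptor hexamer AGGTCA was in 0 of the 9, against 14.0% of all stretches, and TATAAA was in 0 of the 9, against 12.3%. Adipoq held 1 C/EBP core, which starts 81 bases before the start site, and 3 CCAAT matches at 34, 27 and 7 bases before it, none overlapping another. Cfd and Retn held no match to any of the 4 motifs, although with Adipoq they were the 3 genes with the highest DSS ratios. A match is a string of letters, not a bound site.

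Whole-array facts were alike across the groups. Between 67.7% and 70.4% of 43020 spots were well above background, no spot was saturated, and the log2 signals of probes spotted repeatedly had a median SD between 0.0574 and 0.0634. Values are relative signals, the processed signal of a probe divided by that array's 75th percentile, and levels are compared between arrays but not between genes, because probes differ in efficiency. Ratios carry the scanner software's error for the spots, 0.20 to 0.24 on the log2 scale, which covers no difference between mice. A gene counts as 2-fold higher or lower where the brighter array is well above background and the other, if dim, is raised to its array's lowest well-measured signal. Pla2g10, as the check of the knockout, had relative signals of 0.993 in X-KO DSS and 1.69 in X-KO naive colon, against 19.0 in WT DSS and 15.8 in WT naive colon. Its log2 ratio of X-KO over WT was -4.26 with DSS and -3.22 in naive colon. Whether its probe lies in the deleted part is not stated. The probe lies 9.44 Mb from that of Adipoq on chromosome 16.

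Among the secreted genes, Adipoq, Cfd and Retn were each higher in DSS colon than in naive colon in both genotypes. Adipoq encodes adiponectin, the fat cell hormone that raises insulin sensitivity, and its probe lies at chr16:23157576-23157635 in mm9, the build of the probe coordinates. The Adipoq relative signal was 1.06 in X-KO DSS against 0.138 in X-KO naive colon, and 1.55 in WT DSS against 0.143 in WT naive colon. Both DSS arrays lay above both naive arrays. These are 7.71-fold and 10.9-fold ratios, or 2.95 in X-KO and 3.44 in WT on the log2 scale.

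Cfd encodes adipsin, the complement factor D that starts the alternative pathway, and its probe lies at chr10:79355302-79355361 in mm9. Its relative signal was 17.8 in X-KO DSS against 2.03 in X-KO naive colon, and 15.5 in WT DSS against 1.48 in WT naive colon. The DSS arrays again lay above the naive arrays, and Cfd was the one of the 9 genes whose DSS array was brighter in X-KO than in WT. Its log2 ratio of DSS over naive was 3.14 in X-KO and 3.39 in WT.

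Retn encodes resistin, which in mice is secreted by fat cells and was named for its effect on insulin action. The brighter of its 2 probes, at chr8:3659757-3659816 in mm9, read 0.959 in X-KO DSS against 0.164 in X-KO naive colon, and 1.81 in WT DSS against 0.170 in WT naive colon. The second probe, at chr8:3657312-3657371, read 0.833 in X-KO DSS against 0.161 in X-KO naive colon, and 1.55 in WT DSS against 0.175 in WT naive colon. Both probes put the DSS arrays above the naive arrays, and the WT DSS array above the X-KO DSS array. The log2 ratio of DSS over naive was 2.55 in X-KO and 3.41 in WT from the brighter probe, and 2.37 in X-KO and 3.15 in WT from the other.

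Lep encodes leptin, the hormone by which fat stores signal to the brain. Its 1 probe, at chr6:29023234-29023293 in mm9, was spotted 10 times on each array. It was well above background on 0 of 10 spots in X-KO DSS, X-KO naive and WT naive colon, and on 3 of 10 in WT DSS colon. The median relative signal was 0.00564 in X-KO DSS against 0.00448 in X-KO naive colon, and 0.0128 in WT DSS against 0.00438 in WT naive colon. The lowest well-measured signal of each array was 0.0141 in X-KO DSS, 0.0154 in X-KO naive, 0.0113 in WT DSS and 0.0164 in WT naive colon. The Lep medians lie near or under these, so no ratio is given.

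**Figure D1:**
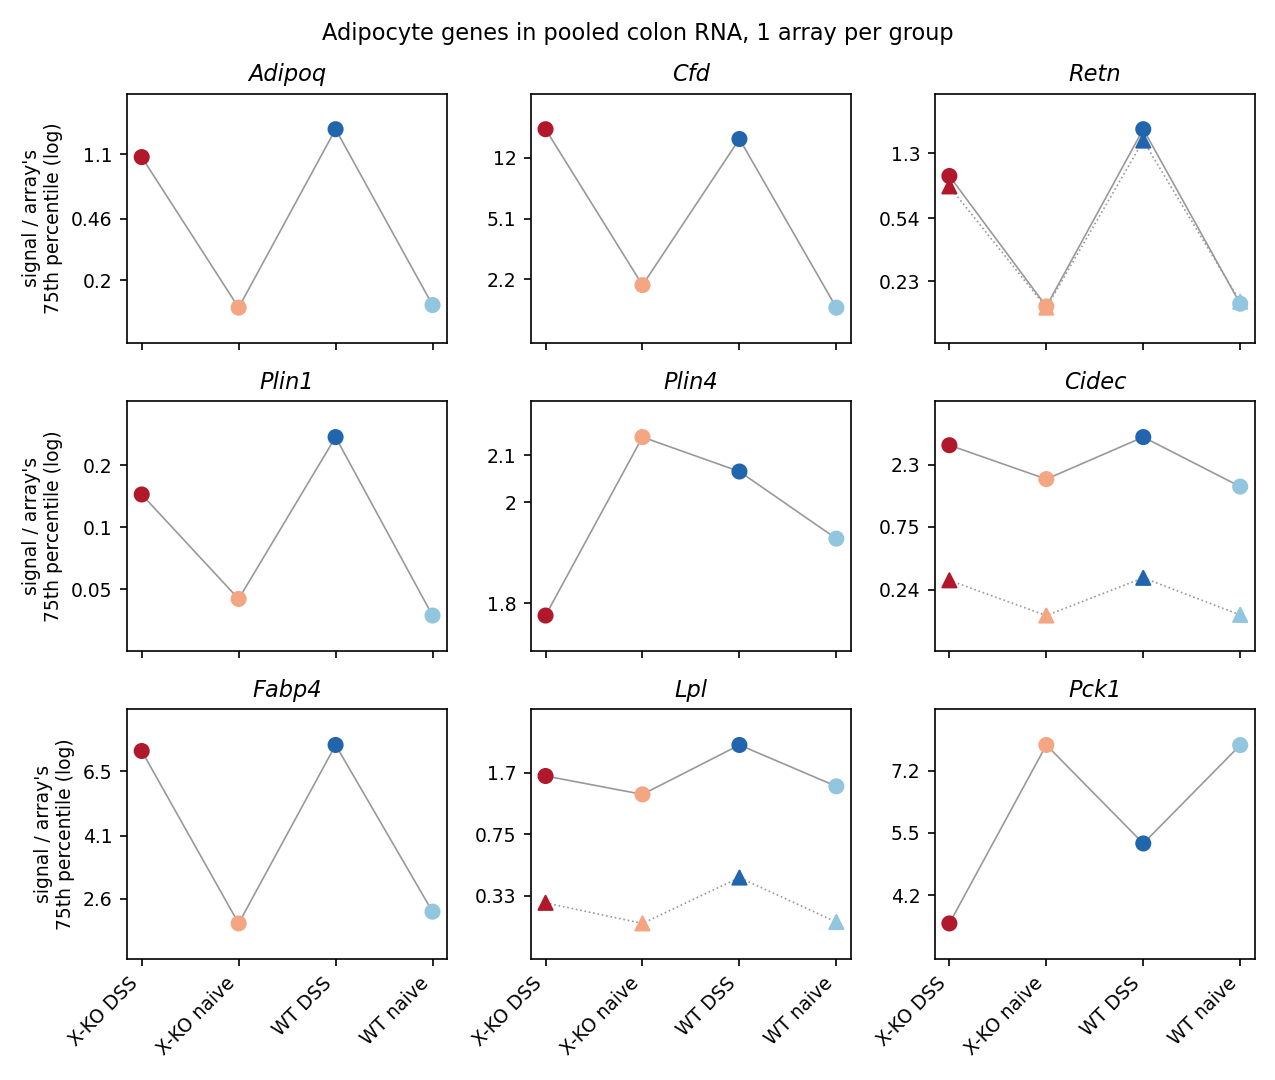
Relative signal (processed signal over the array's 75th percentile, log axes that differ between panels) of the 9 adipocyte genes above background, with 1 point for each array and lines only to guide the eye; circles are the brighter probe and triangles the second probe where there are 2. The DSS points of Adipoq, Cfd, Retn, Plin1 and Fabp4 lie well above the naive points, and those of Pck1 lie below.

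The lipid droplet genes did not behave alike. Plin1 encodes perilipin 1, the coat protein that gates lipolysis on the droplet, and its probe lies at chr7:86866112-86866171 in mm9. Plin1 read 0.144 in X-KO DSS against 0.0448 in X-KO naive colon, and 0.274 in WT DSS against 0.0372 in WT naive colon. Both DSS arrays lay above both naive arrays, with log2 ratios of 1.69 in X-KO and 2.88 in WT, or 3.22-fold and 7.37-fold.

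Cidec encodes a protein that fuses small droplets into the large one of fat cells. The brighter of its 2 probes, at chr6:113374630-113374689 in mm9, read 3.27 in X-KO DSS against 1.77 in X-KO naive colon, and 3.79 in WT DSS against 1.55 in WT naive colon. The second, at chr6:113378116-113378175, read 0.284 in X-KO DSS against 0.150 in X-KO naive colon, and 0.297 in WT DSS against 0.152 in WT naive colon. The probes differed in brightness, not in the order of DSS over naive, and their log2 ratios were 0.89 and 0.92 in X-KO and 1.29 and 0.97 in WT. Only the WT ratio of the brighter probe passed 2-fold.

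Plin4, another droplet coat protein, with a probe at chr17:56240055-56240114 in mm9, read 1.78 in X-KO DSS against 2.14 in X-KO naive colon, and 2.07 in WT DSS against 1.93 in WT naive colon. The DSS and naive readings overlap, since WT DSS lay above WT naive colon while X-KO DSS lay below both naive arrays. The log2 ratio of DSS over naive was -0.27 in X-KO and 0.10 in WT.

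The fatty acid genes were both brighter with DSS, Fabp4 by more. Fabp4 encodes the fatty acid binding protein of fat cells, and its probe lies at chr3:10204452-10204511 in mm9. It read 7.53 in X-KO DSS against 2.18 in X-KO naive colon, and 7.86 in WT DSS against 2.37 in WT naive colon. The genotypes lay close together in both states, and the log2 ratio of DSS over naive was 1.79 in X-KO and 1.73 in WT. Lpl encodes lipoprotein lipase, which frees fatty acids from circulating lipoproteins. The brighter of its probes, at chr8:71430267-71430326 in mm9, read 1.63 in X-KO DSS against 1.27 in X-KO naive colon, and 2.46 in WT DSS against 1.42 in WT naive colon. The other, at chr8:71425050-71425109, read 0.30 in X-KO DSS against 0.228 in X-KO naive colon, and 0.420 in WT DSS against 0.232 in WT naive colon. Both probes put each DSS array above both naive arrays, at under 2-fold: 0.35 and 0.40 in X-KO and 0.80 and 0.86 in WT on the log2 scale.

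Pck1 encodes the cytosolic phosphoenolpyruvate carboxykinase, which in fat makes glycerol for triglyceride. Its probe, at chr2:172984307-172984366 in mm9, read 3.72 in X-KO DSS against 8.05 in X-KO naive colon, and 5.25 in WT DSS against 8.04 in WT naive colon. Both DSS arrays lay below both naive arrays, the opposite of Adipoq, Cfd, Retn, Plin1 and Fabp4, with log2 ratios of -1.12 in X-KO and -0.61 in WT. Of the 9 genes, only Pck1 was 2-fold lower, and only in X-KO.

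**Figure D2:**
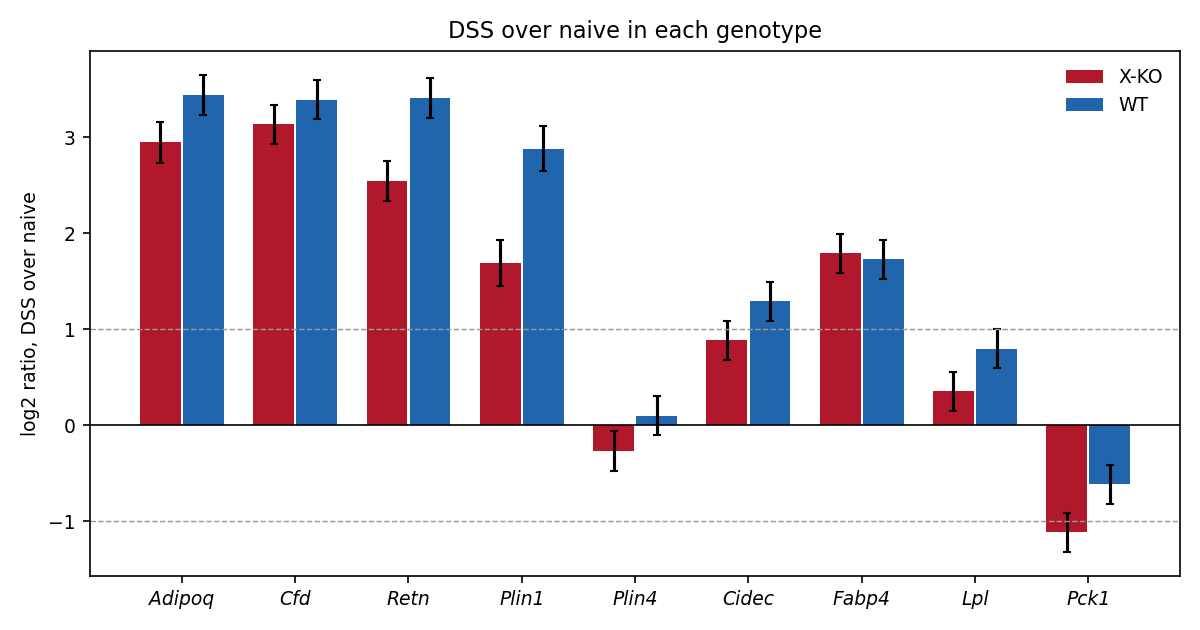
Log2 ratio of DSS over naive (vertical axis) for the 9 adipocyte genes, with X-KO and WT bars side by side; whiskers are the scanner software's error for the 2 spots, there is 1 array for each group, and dashed lines mark 2-fold. Adipoq, Cfd and Retn stand highest in both genotypes and Pck1 is below 0 in both.

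At 2-fold, 5 of the 9 genes were higher and 1 was lower in X-KO DSS than in X-KO naive colon, where 5.67% of all 22161 genes were higher and 5% lower. In WT, 6 of the 9 were higher and none lower, where 3.44% of all genes were higher and 5.14% lower. Because this contrast chose the genes, nothing is read from these shares. The median log2 ratio of the 9 genes was 1.69 in X-KO and 1.73 in WT, while that of all genes was -0.13 in X-KO and -0.02 in WT. Ranked from the highest ratio among 22161 genes, Adipoq stood at 274 in X-KO and 131 in WT. Cfd stood at 232 in X-KO and 137 in WT, and Retn at 398 in X-KO and 133 in WT. Plin1 stood at 799 in X-KO and 196 in WT, and Fabp4 at 732 in X-KO and 520 in WT. Cidec stood at 1677 in X-KO and 762 in WT, and Lpl at 3719 in X-KO and 1433 in WT. Plin4, at 13733 in X-KO and 8811 in WT, and Pck1, at 20942 in X-KO and 19359 in WT, stood far below the rest. In pooled colon RNA, more fat cells, more RNA of these genes in each fat cell and RNA from other cells cannot be told apart.

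**Figure D3:**
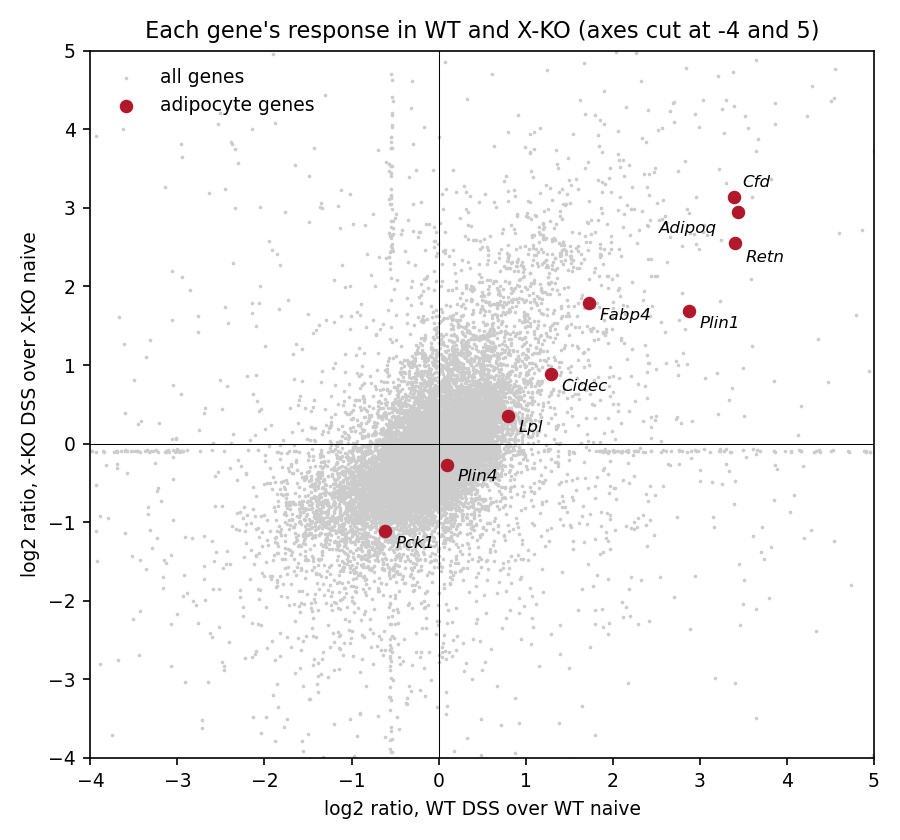
Log2 ratio of DSS over naive in WT (horizontal axis) and in X-KO (vertical axis) for all 22161 genes in grey and the 9 adipocyte genes in red; values past -4 and 5 are outside the axes, and lines of grey points come from genes dim on both arrays of a genotype. Adipoq, Cfd, Retn and Plin1 lie to the right, at WT ratios of 2.88 to 3.44.

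Genotype was not used to choose the genes. In naive colon, X-KO and WT differed by under 2-fold in all 9 genes, where 1.13% of all genes were higher and 1.04% lower in X-KO. The log2 ratios of X-KO over WT in naive colon were between -0.16 for Lpl and 0.45 for Cfd, with a median of 0.00. With DSS, 8 of the 9 were lower in X-KO than in WT, none by 2-fold, and only Cfd was higher, where 60.9% of all genes were below 0, 5.06% of all genes were 2-fold higher and 2.2% 2-fold lower. The median log2 ratio of the adipocyte genes was -0.50, while that of all genes was -0.09. Among 9 reference genes, such as Actb and Gapdh, 7 were below 0, with a median of -0.22. The lowest adipocyte genes were Plin1 at -0.93, Retn at -0.91, Lpl at -0.60 and Adipoq at -0.55, and Cfd stood at 0.20. Fabp4, at -0.06, ran between -0.15 with scaling by the array median and 0.09 with quantile normalization, so its direction depends on the scaling. With scaling by the array median, 2 of the 9 were lower by 2-fold, and with quantile normalization 1 was.

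**Figure D4:**
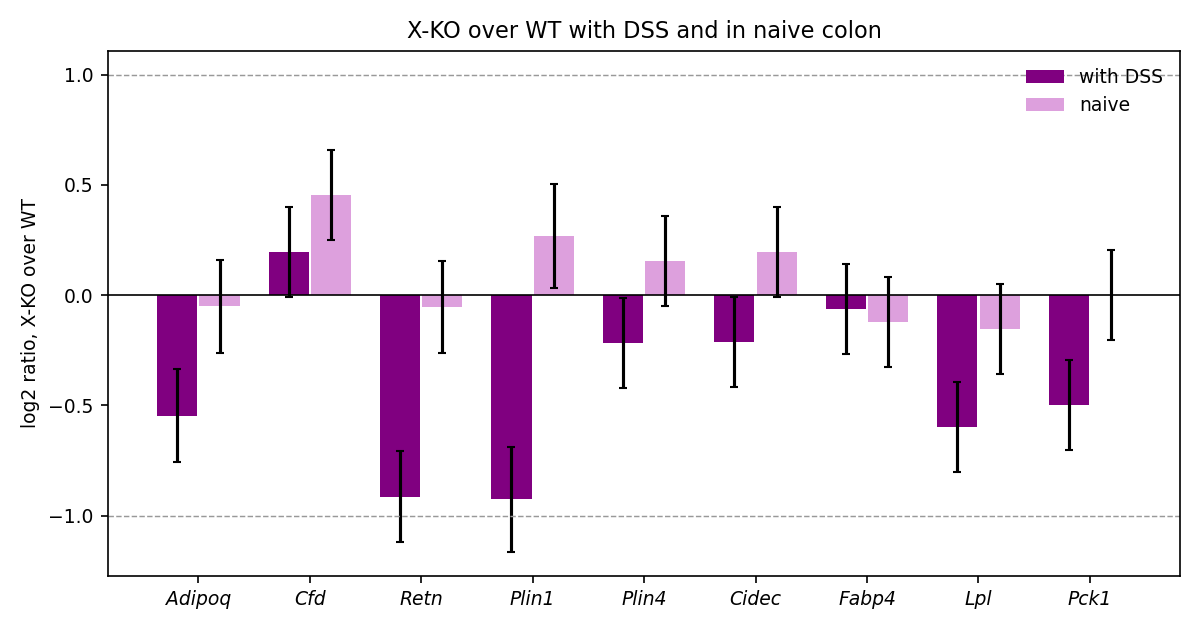
Log2 ratio of X-KO over WT (vertical axis) for the 9 adipocyte genes with DSS and in naive colon; whiskers are the scanner software's error for the 2 spots, there is 1 array for each group, and dashed lines mark 2-fold. With DSS, Retn and Plin1 reach -0.91 and -0.93, while Cfd and Fabp4 lie near 0.

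Over both states together, none of the 9 genes passed the test of genotype in the additive limma fit, which compares X-KO with WT over 2 arrays each and has 1 residual degree of freedom. The adjusted p was 0.999 for each of the 9 (Benjamini-Hochberg over 22161 genes). The estimates were -0.48 ± 0.29 for Retn, -0.38 ± 0.20 for Lpl, -0.33 ± 0.37 for Plin1, -0.30 ± 0.21 for Adipoq and 0.33 ± 0.18 for Cfd (log2, SE, n = 2 arrays a genotype). Fabp4, Cidec, Plin4 and Pck1 lay between -0.25 and -0.01. Across all genes the same fit called 0 of 22161 (0%), with 862 at an unadjusted p under 0.05, and the trend and robust variant of limma called 7 (0.0316%), none of them among the 9 genes. A p that misses the threshold does not show that the genotypes express these genes alike.

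The log2 ratio of DSS over naive was lower in X-KO than in WT for 8 of the 9 genes. The median of all genes was also lower in X-KO, at -0.13 against -0.02 in WT, with 61.8% and 51.6% of genes below 0. Among the 9 reference genes, 7 were below 0 in X-KO and 2 in WT. Their median log2 ratio was -0.12 in X-KO and 0.38 in WT, and the part of array scaling was not tested. The share of all genes with a lower ratio in X-KO was not counted, so nothing is read from the 8. The difference, X-KO minus WT, was -1.19 for Plin1, -0.86 for Retn, -0.50 for Adipoq and -0.26 for Cfd, and Fabp4 was the exception at 0.06. This difference has no residual degree of freedom and was not tested. In the additive fit it is the residual on which each gene's SE and p rest, together with the variance of the other genes. As added relative signal, DSS minus naive, Adipoq gained 0.924 in X-KO and 1.41 in WT, and Retn gained 0.794 in X-KO and 1.64 in WT. Cfd gained 15.8 in X-KO and 14.1 in WT, so its order of genotypes was the reverse on this scale.

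Other genes of fat cells were counted in the same way. The shares of all 22161 genes at 2-fold were 5.67% higher and 5% lower in X-KO, and 3.44% higher and 5.14% lower in WT. Of 21 regulators and receptors, 6 were 2-fold higher with DSS in X-KO and 3 in WT, and none was lower. The largest were Adig, a regulator of fat cell differentiation, at 1.73 in X-KO and 1.79 in WT, and Car3, the carbonic anhydrase abundant in fat, at 1.31 in X-KO and 2.09 in WT (log2). Trarg1, a protein of glucose transporter trafficking, was dim in both naive arrays and at least 1.73-fold higher in X-KO and at least 1.95-fold higher in WT, which does not pass 2-fold. Npr3, the clearance receptor of natriuretic peptides, was dim in X-KO naive colon and at least 2.16-fold higher in X-KO, and 1.68-fold higher in WT. Pparg and Cebpa, the main transcription factors of fat cells, named after their values were seen, stood at -0.21 and 0.01 in X-KO and 0.33 and -0.05 in WT.

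Of 9 lipolysis genes, 0 were past 2-fold in either direction in either genotype. Lipe, hormone-sensitive lipase, stood at 0.46 in X-KO and 0.81 in WT, and G0s2, an inhibitor of triglyceride lipase, at 0.84 in X-KO and 0.41 in WT. Of 15 lipogenesis genes, 0 were 2-fold higher and 1 lower in X-KO, and 2 were higher and 1 lower in WT. Thrsp, a lipogenic regulator, stood at 0.91 in X-KO and 1.51 in WT, and Scd1, the desaturase of stearoyl-CoA, at 0.00 in X-KO and 1.64 in WT. Mlxipl and Fasn went the other way, with log2 ratios averaged over both genotypes of -0.80 and -0.72. Of the 15 genes, 10 were below 0 in X-KO and 7 in WT, where 61.8% and 51.6% of all genes were below 0. Scd1 and Thrsp were the 2 genes of the list lower by 2-fold in X-KO than in WT with DSS, at -1.88 and -1.11.

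Of 15 fatty acid uptake and other secreted genes, 5 were higher and 1 lower in X-KO, and 2 higher and 1 lower in WT. Nnmt, a nicotinamide methyltransferase, stood at 2.66 in X-KO and 1.17 in WT, and Angptl4, an inhibitor of lipoprotein lipase, at 1.38 in X-KO and 0.64 in WT. Itln1, an intelectin that intestinal goblet and Paneth cells of mice also make, was lower with DSS, at -4.44 in X-KO and -2.22 in WT. Of 10 brown fat genes, 1 was higher and 1 lower in X-KO and 2 were higher in WT, and 5 were below 0 in each genotype. Dio2, the enzyme that activates thyroid hormone, stood highest, at 4.62 in X-KO and 2.33 in WT. Ppargc1a and Prdm16 were lower, with log2 ratios averaged over both genotypes of -1.18 and -0.74. Of 11 genes of fat stromal progenitors, 4 were higher in X-KO and 2 in WT, with Ly6a at 2.14 in X-KO and 2.45 in WT.

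Among 24 relatives of the adipocyte genes, 4 were 2-fold higher in X-KO and 3 in WT, and none was lower. Plin5, the droplet coat of oxidative tissue, stood at 0.98 in X-KO and 1.00 in WT, and Fabp5, an epidermal fatty acid binding protein, at 1.14 in X-KO and 0.96 in WT. Retnlg, the resistin-like gene of neutrophils, was dim in both naive arrays and at least 179-fold higher in X-KO and at least 18.4-fold higher in WT with DSS. Retnla, a resistin-like gene of macrophages, was lower in X-KO than in WT, at -1.30 with DSS and -1.15 in naive colon. Neither Adipor1 nor Adipor2, the receptors of adiponectin, passed 2-fold, at -0.04 and -0.38 in X-KO and 0.03 and 0.16 in WT.

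With the additive limma fit for DSS, 0 of 22161 genes passed (0%), although 4053 had an unadjusted p under 0.05, and the trend and robust variant called 1615 (7.29%). That variant called 3 higher and 1 lower of the regulators and receptors, 1 higher and 1 lower of the lipogenesis genes, 3 higher of the uptake and secreted genes, 1 higher and 1 lower of the brown fat genes, 2 higher of the progenitor genes, 3 higher of the relatives and none of the lipolysis genes. Unadjusted, 7, 4, 6, 4, 3, 5 and 2 of the same lists passed in the default fit. Because the lists were chosen with earlier results of these data known, nothing is read from their calls.

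**Figure D5:**
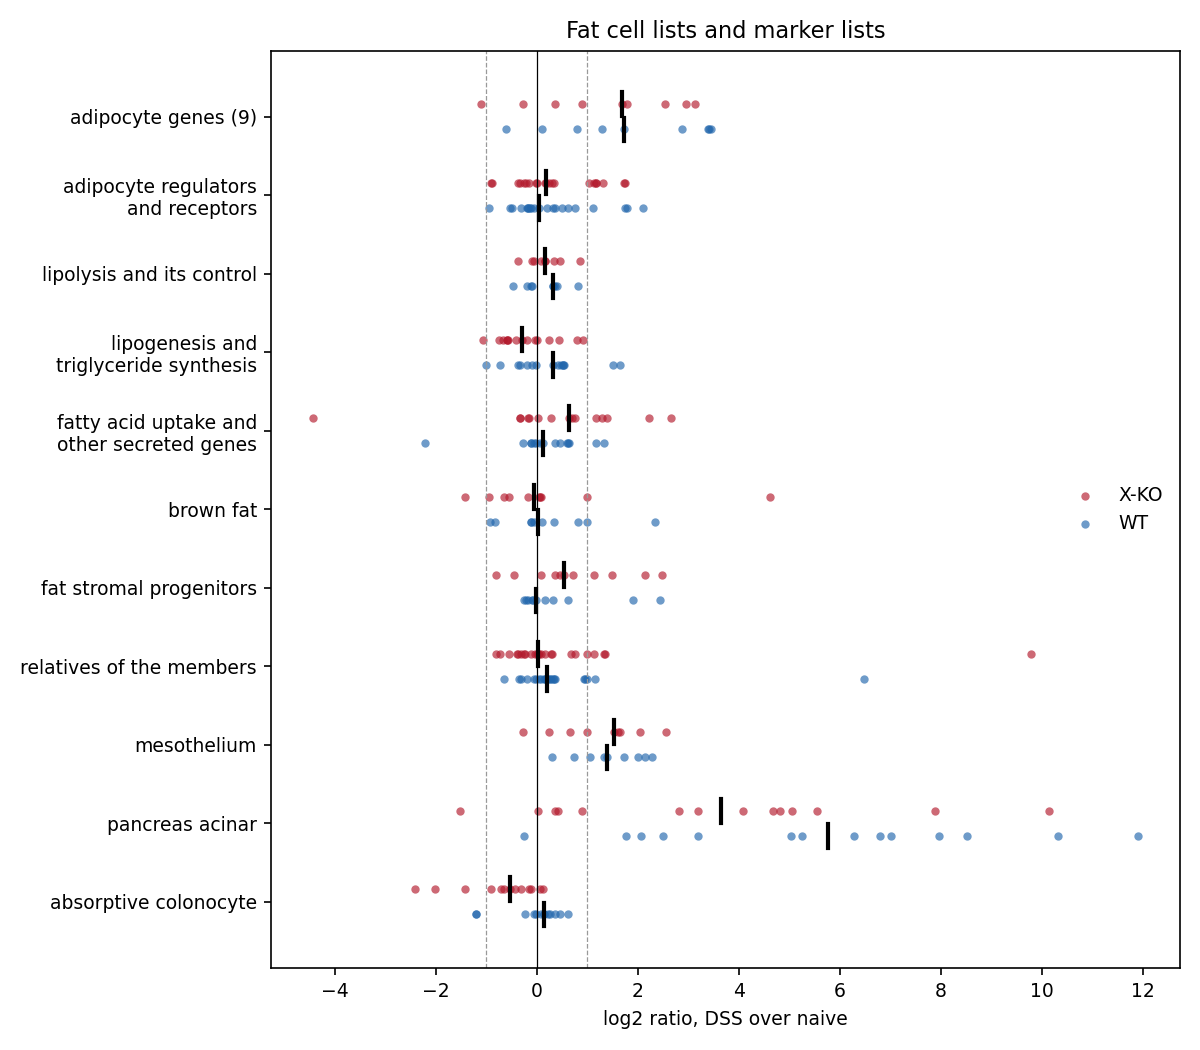
Log2 ratio of DSS over naive for each gene (points) of the adipocyte genes, 7 wider fat lists and 3 marker lists, with X-KO above WT in each row; black ticks are medians, dashed lines mark 2-fold, and dim values are plotted as measured. The adipocyte genes have medians of 1.69 in X-KO and 1.73 in WT in a contrast that chose them, and the widest spread is that of the pancreas acinar genes, of which 7 of 14 are dim in each naive array.

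Pancreas acinar and mesothelium markers were mostly higher with DSS alongside the adipocyte genes, while other lists went other ways. In X-KO, 9 of 14 pancreas acinar genes passed 2-fold upward and 1 downward, and in WT 13 did so upward and 0 downward. Amy2a5, pancreatic amylase, was at least 272-fold higher in X-KO and at least 806-fold higher in WT, and dim in both naive arrays, and 7 of the 14 genes were dim in each naive array. The summed relative signal of the list was 10.1 in X-KO DSS against 7.22 in X-KO naive colon, and 38.5 in WT DSS against 8.08 in WT naive colon. All 14 were 2-fold lower in X-KO DSS than in WT DSS, and their median log2 ratio was -2.35. In that contrast 8 of the 9 adipocyte genes were also lower, by smaller amounts. The direction was not particular to these lists. All 13 absorptive colonocyte genes (median -0.50) and all 7 smooth muscle genes (median -0.62) were lower too, as were 60.9% of all genes. Macrophage and endothelium genes went the other way, with 8 of 9 and 9 of 10 above 0. Of 9 mesothelium genes, the covering of the bowel surface, 5 were higher in X-KO and 7 in WT, led by Wt1 at 2.55 in X-KO and 2.28 in WT and Msln at 1.64 in X-KO and 2.14 in WT. Their summed relative signal was 68.5 in X-KO DSS against 81.2 in X-KO naive colon, and 84.8 in WT DSS against 68.5 in WT naive colon. A sum follows the brightest probes of its list. The X-KO sum was lower with DSS although 8 of the 9 genes were above 0, with a median log2 ratio of 1.53. The gene Lrrn4 was dim in WT naive colon. The trend and robust variant of limma called 6 mesothelium and 4 pancreas acinar genes higher with DSS, where the default fit called 0 of either, with 7 and 10 at an unadjusted p under 0.05. Both lists were chosen with earlier results of these data known, so nothing is read from these calls. Of 6 pancreas endocrine genes, 1 was higher and 1 lower in X-KO and 1 was higher in WT. Of 5 skeletal muscle genes, none was higher, 4 were lower in X-KO and 2 in WT, and of 7 lymph node and B cell genes 1 was higher in X-KO and 0 in WT. The part of these tissues in the adipocyte values was not tested.

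Markers of the cells of the colon itself differed as well. No absorptive colonocyte gene of 13 was 2-fold higher with DSS, and 3 were lower in X-KO and 2 in WT, with summed signals of 432 in X-KO DSS against 648 in X-KO naive colon, and 612 in WT DSS against 568 in WT naive colon. Slc26a3, the chloride exchanger of colonocytes, stood at -2.01 in X-KO and -1.20 in WT. Of 9 macrophage genes, which bear on Fabp4 and Lpl, 8 were higher in X-KO and 5 in WT, with summed signals of 39.2 in X-KO DSS against 23.7 in X-KO naive colon, and 28.5 in WT DSS against 23.0 in WT naive colon. Of 10 endothelium genes, 5 were higher in X-KO and 0 in WT, with summed signals of 11.4 in X-KO DSS against 8.21 in X-KO naive colon, and 8.62 in WT DSS against 8.29 in WT naive colon. Of the macrophage, endothelium and colonocyte genes, none was dim on any array. Of 8 neutrophil genes, 5 were higher in X-KO and 6 in WT, and of 4 erythrocyte genes 4 were higher in X-KO and 3 in WT, with none lower in either list. For DSS, the trend and robust variant called 2 colonocyte genes lower, 4 macrophage genes higher and 0 endothelium genes, where the default fit called 0 of each, with 2, 5 and 0 at an unadjusted p under 0.05. As these lists too were chosen with earlier results known, nothing is read from the calls. The part of these cells in the adipocyte values was not tested.

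The genes whose pattern over the 4 arrays was most like that of Adipoq were searched among 19321 genes above background on all arrays, by the root mean square difference of centred log2 signals. Retn came first at 0.17, followed by Igtp at 0.20, Gbp2 at 0.24, Gm12250 at 0.27 and Dnah17 at 0.29, with Cfd sixth at 0.32. Igtp, Gbp2 and Ifi47, at 0.35, are interferon-inducible GTPases. Reg3g at 0.34 and Reg3b at 0.35 encode antimicrobial lectins of the gut epithelium, and Slc4a11 stood at 0.36. Among the 10 nearest genes, Retn and Cfd were the 2 adipocyte genes. Cfd was chosen by its DSS ratio, as Adipoq was, and the other adipocyte genes with earlier results of these data known. Nothing is therefore read from the places of the adipocyte genes. Plin1 ranked 24, Fabp4 70, Cidec 347, Lpl 1054, Plin4 9768 and Pck1 18215. The ranking is a description over 4 arrays that share 1 slide.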

How the data were processed

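Total RNA of pooled colons was hybridised to 4 single-colour Agilent arrays on 1 slide, after labelling with Cy3 per the labels' protocols. The deposited scanner files hold the intensity of each spot and its processed signal, background-subtracted by Feature Extraction 11.5.1.1 per the submitters' processing notes, with a deposited p-value for each spot against background per the file headers. The deposited table of values, a linear signal scaled by the authors, matched the signals scaled here up to a constant factor of 1.0018 to 1.006 for each array and served as an alternative.

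Each processed signal was divided by its array's 75th percentile and taken as log2. Spots flagged as outliers and control spots were left out. Of 39429 probes, 28719 exceeded background clearly on 1 array or more and stood for 22161 genes, each by its brightest probe, and 17659 of these carried a RefSeq symbol. Pairwise ratios had no test, because each group is 1 array. limma 3.58.1 in R 4.3.3 gave the mean effects of genotype and of DSS, with the threshold at an adjusted p of 0.05.

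The genes and lists were chosen with earlier results of these data known. All 10 adipocyte genes are named. Of the other lists, up to 4 genes with the largest mean ratio are named, plus relatives and the 10 genes most like Adipoq; any other gene is said to be chosen after its values were seen. The p-values rest on 1 residual degree of freedom, which is the difference of the DSS responses between the genotypes. They measure no spread between mice or between arrays of the same group, and the number of arrays limits their precision. Alternatives changed the scaling, background correction, probe filter, probe summary, dim-value rule, fold threshold and variance model.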

Additional observations from a re-analysis of the deposited data

Results flagged for a closer look

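Plin4 ran opposite ways in the genotypes: its log2 ratio of DSS over naive was -0.27 in X-KO and 0.10 in WT, a difference of -0.37 in X-KO minus WT. The difference was not tested, since each group is 1 array. The scanner software's error of each of these ratios was 0.20.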

How the results depend on the processing

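No paired analysis was possible because each group is 1 array, and no array could be left out of a pairwise ratio. Of the adipocyte genes' log2 ratios recomputed under alternatives, 247 moved by less than the spots' error and 5 by more. The 5 were all with normexp background correction: Retn 2.23 and Plin1 1.31 in X-KO, and Adipoq 3.17, Retn 2.90 and Plin1 2.33 in WT (DSS over naive). At 4-fold, X-KO had 3 adipocyte genes higher and 0 lower with DSS. With DSS, 2 adipocyte genes were 2-fold lower in X-KO than in WT with scaling by the median and 1 with quantile normalization. The genotype effect had 7 calls with the trend and robust variant. The DSS effect had 1271 calls over probes above background on all arrays and 1615 with the trend and robust variant, and with no filter on dim probes, an alternative chosen after seeing the data, it had 35 (32 higher, 3 lower). With normexp, 546 of all genes were 2-fold lower with DSS in X-KO against 1107 with the report's settings, and 489 against 1138 in WT. Under the all-array filter 498 genes were higher with DSS in WT against 763. For X-KO over WT in naive colon, 250 were higher and 230 lower, against 137 and 123 with normexp, 98 and 53 with the all-array filter and 384 and 351 with dim values as measured. With DSS, 1121 were higher and 488 lower, against 546 and 269 with normexp, 732 and 248 with the all-array filter, and 831 lower with dim values as measured. At 4-fold the counts were 418 and 169, 204 and 160, 74 and 70, and 157 and 107 in the order X-KO DSS, WT DSS, naive genotype and DSS genotype, higher before lower. Scaling by the median put the median of all genes in WT DSS over naive at 0.12, against -0.02. The direction of Fabp4 in X-KO over WT with DSS turned with the scaling (-0.15 to 0.09). The causes were not tested.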
